A study of Mus musculus with 282 samples.

Results

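Gad1, Gad2, Slc32a1, Slc6a11 and Slc17a6 are the genes by which inhibitory and excitatory neurons make, load or recover their transmitter. They were found by gene name in the deposited assembly, which gave 5 gene rows of 14079 and 42 transcript rows of 51024. RNA of the whole hypothalamus was sequenced in 1 library per mouse, from 282 males that were fed a diet high in fat and sugar. The mice belong to 99 strains of the Hybrid Mouse Diversity Panel, which are 25 classical inbred strains and 43 BXD, 18 AXB/BXA, 7 CXB and 6 BXH recombinant inbred strains. Each recombinant set descends from C57BL/6J and a second parent, DBA/2J for BXD, A/J for AXB/BXA, BALB/cJ for CXB and C3H/HeJ for BXH. All mice shared sex and diet, so that strain was the only group, with 3 mice in 85 strains, 2 mice in 12 and 1 mouse in 2. The strain of 281 mice is known, and the remaining mouse, whose labels name a pair of strains, was kept out of all comparisons between strains.

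GABA is the main inhibitory transmitter of the brain and glutamate the main excitatory one. Glutamate decarboxylases turn glutamate into GABA, vesicular transporters load either transmitter into synaptic vesicles, and transporters in the cell membrane take GABA back up after release. In the hypothalamus both kinds of neuron lie side by side in most nuclei, and excitatory neurons there carry the vesicular glutamate transporter encoded by Slc17a6.

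Gad1, on chromosome 2 at 70553072 to 70602027 (mm10, plus strand), encodes the larger glutamate decarboxylase and had 6 deposited transcripts. Gad2, on the same chromosome at 22621922 to 22694417, encodes the smaller decarboxylase, found mainly at nerve terminals, and had 10. Slc32a1, at 158610767 to 158615748 on chromosome 2, encodes the vesicular transporter of GABA and glycine and had 1. Slc17a6, at 51621374 to 51671198 on chromosome 7, encodes vesicular glutamate transporter VGLUT2 and had 13. Slc6a11 encodes GAT3, a membrane GABA transporter found mainly in astrocytes, and had 12 transcripts from 114131071 on chromosome 6. Its gene row holds more than its own transcripts, so the gene row is named as such throughout, and Slc6a11 was also followed by the sum of its own 12 deposited transcripts.

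The assembly begins Slc17a6 transcripts in 2 places, 7 of them between 51621374 and 51621830 and 6 between 51624436 and 51624812. RefSeq (GRCm38.p6, whose coordinates on these chromosomes are those of mm10) places a Slc17a6 start in each region, at 51621830 and at 51624637. The 30 bases just before each RefSeq start are shown because transcript levels from both starts are reported further on, with CG dinucleotides in capitals.
Slc17a6, upstream start, chr7:51621800-51621829: agctcccctaggaagttggCGagCGggtta
Slc17a6, downstream start, chr7:51624607-51624636: tgtctaacaggagtaaagagaggagggatt
Within 250 bases before the start, the upstream start had 7 CG dinucleotides and the downstream start 3, against a median of 6 over 32851 RefSeq promoters. The letters TAATTA, read the same on both strands, occurred in the downstream window of 250 bases before to 50 after the start and in no other promoter of these genes. They occurred in 5.29% of all promoters, and a match describes the letters only.

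20 libraries stood apart from the others, with 10311 to 18707 of 51024 transcripts at 0, where the remaining 262 had at most 8295. They include every mouse of BXD-9/TyJ, BXD62, BXD70, BXD75, BXD85 and BXHA1, 1 mouse of BXD87, mouse OB-547 of BXD-12/TyJ and mouse OB-422 of CXB-3/ByJ. In the 6 strains with all mice affected, the state of the library and the strain cannot be told apart, so the strain tests are given with and without these libraries, and other values name the libraries they rest on. Mouse OB-547 had 9.97 FPKM (fragments per kilobase of transcript, scaled to the mapped fragments of the library) of Gad1 and 6.77 of Slc17a6, against lowest values of 74.2 and 46.3 among the 262 libraries, while its Slc32a1, at 92.0, was close to their highest value of 92.6. Mouse OB-422 had 21.5 FPKM of Slc17a6 and 85.2 of Gad1. In the other 18 libraries Gad1 was 64.8 to 101 FPKM with a median of 86.9, below the median of 114 in the 262 libraries, and Slc17a6 had a median of 94.5 against 95.0. Markers of the hypothalamus were present, with mean levels of 6.07 (Nkx2-1) to 496 FPKM (Pmch) over 8 genes. In bulk tissue, fewer cells of a type and less RNA per cell cannot be told apart.

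All 5 genes were abundant. Among the GABA genes, Gad1 averaged 114 FPKM ± 21.3 (SD, n = 282), Gad2 68.9 ± 9.84 and Slc32a1 53.1 ± 8.97, while Slc17a6 averaged 93.4 ± 15.5. The Slc6a11 gene row averaged 321.05 FPKM ± 32.1, of which the transcripts of Slc6a11 made up a median of 68.8%. Summed over its transcripts, Slc6a11 averaged 220.3 FPKM ± 23.0 and was thus the most abundant of the 5. Over the 262 libraries the coefficient of variation was 16.7% for Gad1, 14.2% for Gad2, 16.0% for Slc32a1, 9.29% for Slc6a11 transcripts and 15.2% for Slc17a6.

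To ask whether strains differed, log2(FPKM + 1) was fitted on the 99 strains with limma and its moderated F test, with Benjamini-Hochberg adjustment over all genes. 4 of the 5 gene rows passed an adjusted p of 0.05, as did 75.4% of all 14079 genes, and 5 of 5 passed without the 20 libraries, where 80.5% of all genes did. The exception was Slc17a6, with an adjusted p of 0.0743 by limma over all mice and 2.47e-06 without the 20 libraries. Leaving out only mouse OB-547 gave Slc17a6 an adjusted p of 3.47e-05 in the same limma test. Labels do not say whether mice of a strain shared a cage or a preparation, so that these p values measure the spread between these mice.

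**Figure D1:**
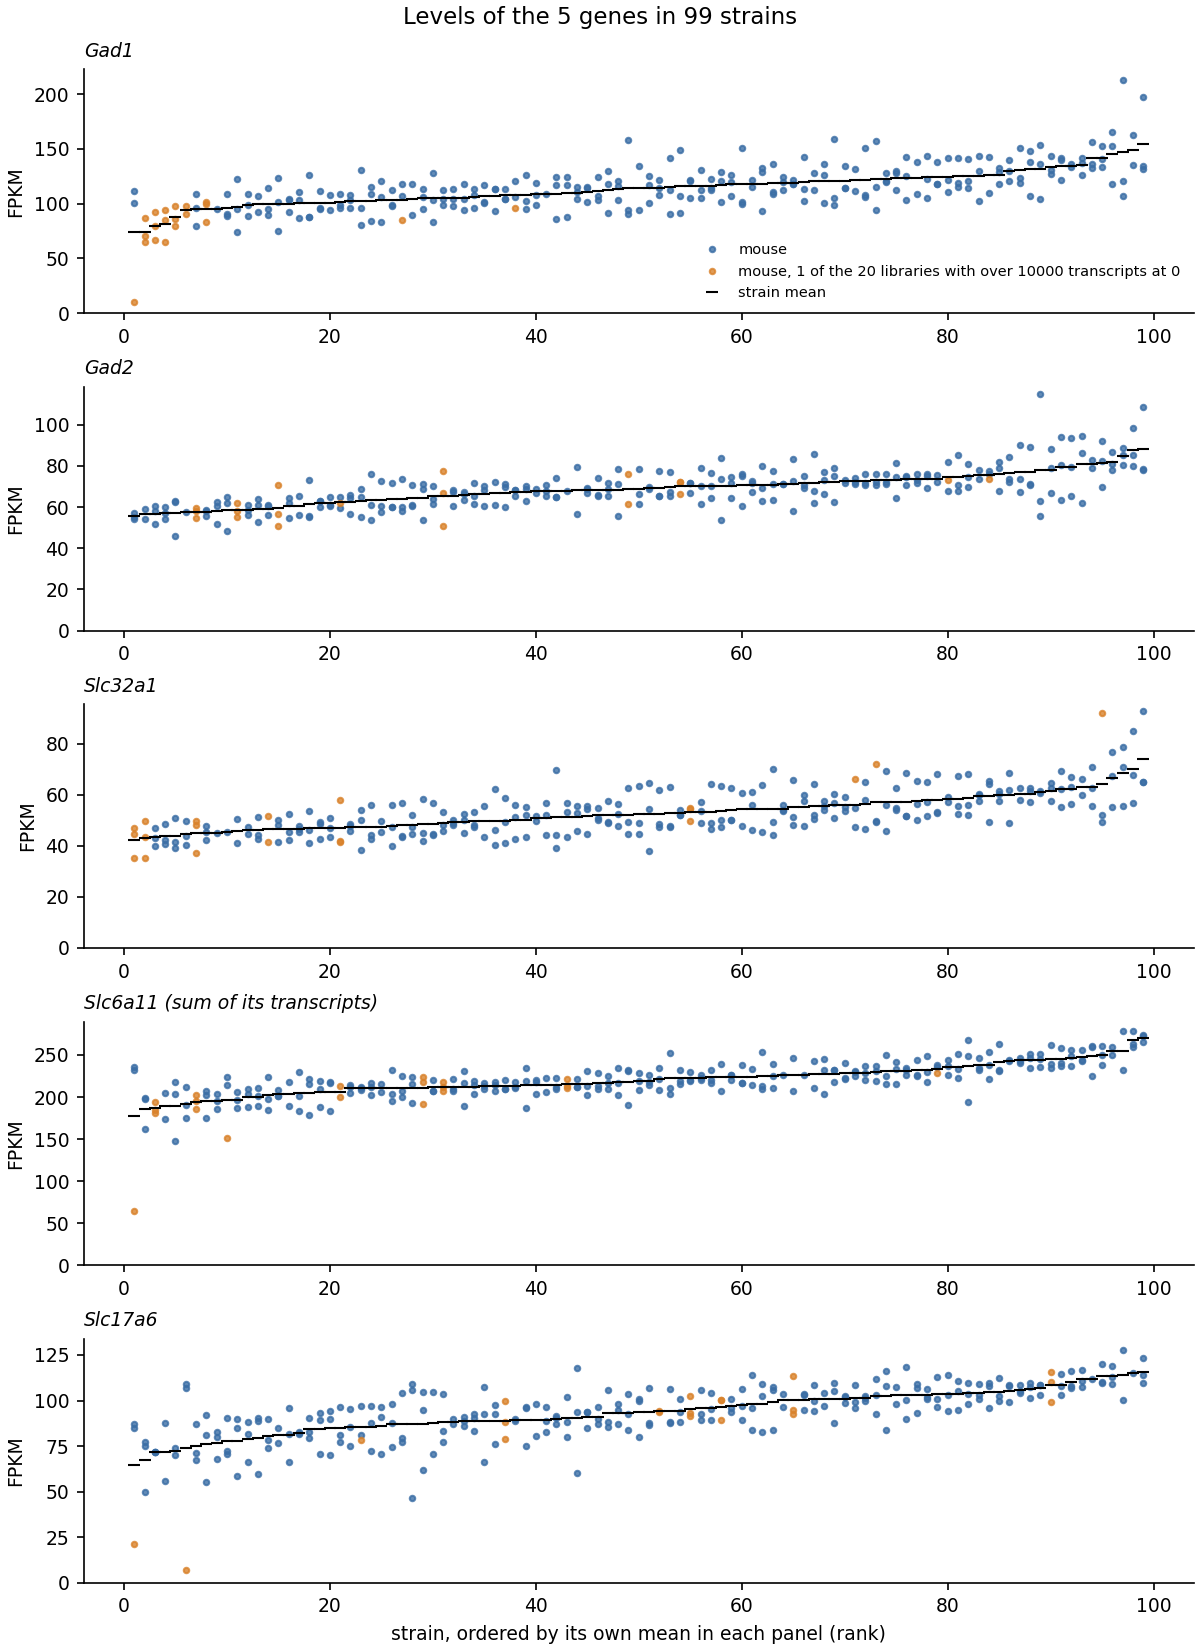
Each panel plots FPKM (y axis, from 0) of 1 gene for every mouse with a known strain (blue points, or orange for the 20 libraries with over 10000 transcripts at 0) against the rank of its strain, with a bar at the strain mean. Strain means range from 55.5 to 88.4 FPKM for Gad2.

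Gad2 had the largest strain share among the 3 genes of GABA synthesis and loading. The strain with the lowest mean was CE/J, at 55.1, 54.3 and 57.2 FPKM, and the strain with the highest mean was BXD-19/TyJ, at 77.9, 108.6 and 78.7 FPKM. The mice of these strains did not overlap, and the means differed 1.59-fold, 55.5 ± 1.47 against 88.4 ± 17.5 (SD, n = 3 each). The intraclass correlation of log2(FPKM + 1), called strain share here, was 0.330 with all libraries and 0.322 without the 20, against medians of 0.222 and 0.256 over all genes. The limma F test gave an adjusted p of 5.21e-07, and 2.08e-06 without the 20 libraries.

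Gad1 was highest in BXD-24/TyJ, at 131, 197 and 135 FPKM. Over all libraries it was lowest in BXD-12/TyJ, where the mean of 74.1 rests on mouse OB-547, and then in BXD85, BXD70 and BXD75, whose mice are all among the 20 libraries. BXD85 had 70.3, 87.3 and 65.4 FPKM. Outside the 20 libraries the lowest strain was AXB-18/PgnJ, at 95.9, 108.5 and 79.6 FPKM, and the span of strain means shrank from 2.09-fold to 1.63-fold. The strain share of Gad1 was 0.188 with all libraries and 0.147 without the 20, below the median over all genes in either case. Its adjusted p by limma was 0.00230 with all libraries and 0.0160 without the 20.

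Slc32a1 had its highest mean in the same strain as Gad2. BXD-19/TyJ had 65.01, 92.6 and 64.95 FPKM and BXHB2 had 56.9, 85.1 and 67.9, while BXD64 had 47.0, 39.9 and 43.1. The mice of BXD64 lay below all mice of BXD-19/TyJ and BXHB2. Strain means without the 20 libraries spanned 1.71-fold, from 43.3 to 74.2 FPKM, and the strain share was 0.254, and 0.243 with all libraries, close to the median of all genes in either case. Its adjusted p by limma was 0.000154 with all libraries and 0.000136 without the 20.

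Slc6a11 had the largest strain share of the 5 genes without the 20 libraries. Summed over its transcripts it was 273.4, 272.8 and 266 FPKM in NZW/LacJ and 199.04, 198 and 162 in BXD56, so that the mice of these strains did not overlap and the means differed 1.45-fold. The strain share of the transcript sum was 0.471 without the 20 libraries and 0.251 with them, and that of the gene row 0.440 and 0.198. By limma over 12874 gene names, of which 67.4% passed, the adjusted p of the transcript sum was 0.000168. With these libraries left out 69.3% of names passed, and its adjusted p by limma was 1.81e-11.

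Slc17a6 was highest in BXD44, at 123.5, 109.7 and 114 FPKM, and high in A/J, at 113, 118.9 and 109.03 FPKM. Outside the 20 libraries it was lowest in BXD51, at 77.4, 74.9 and 49.8 FPKM, followed by BXH-9/TyJ, whose 3 mice were at 71.7, 71.7 and 71.8. The mice of BXD51 and BXH-9/TyJ lay below every mouse of BXD44 and A/J, and strain means spanned 1.72-fold, from 67.4 to 115.8 FPKM. The strain share of Slc17a6 was 0.318 without the 20 libraries and 0.0936 with them.

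When strains with at least 2 mice were ordered by their mean, the mice of neighbouring strains overlapped in all 96 neighbouring pairs for each of the 5 genes, which the ordering favours. Between the lowest and the highest strain the mice did not overlap for any of the 5 genes, a contrast that the ordering itself selects.

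The balance between GABA and glutamate genes was expressed as the mean of log2(FPKM + 1) of Gad1, Gad2 and Slc32a1 minus that of Slc17a6. Over 281 mice its median was -0.36, with single mice between -1.11 and 2.37, the highest value being that of mouse OB-547. With the 20 libraries left out the median was -0.35 and single mice ranged from -1.09 to 1.21. The sign of the ratio depends on the genes entered, since Gad1 alone gave a median of 0.24 and Slc32a1 alone -0.86, so the differences between strains are given rather than an absolute balance.

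Among the 93 strains that remained without the 20 libraries, A/J had log2 ratios of -0.67, -0.99 and -0.83 and CE/J had -0.66, -0.95 and -0.75. At the other end, BXHB2 had 0.09, 0.96 and -0.01, BXD51 had 0.02, 0.28 and 0.72, and CXB-12/HiAJ had 0.15, 0.49 and -0.01. The mice of A/J and CE/J lay below all mice of the 3 high strains. The strain share of the ratio was 0.336, and 0.246 with all libraries, and the strain means without the 20 spanned 2.32-fold on the ratio scale, where the low end, -0.86, is AXB-12/PgnJ with 1 mouse. The ratio combines the chosen genes, so no test was made of it. By strain set, the median of strain means without the 20 libraries was -0.50 in 18 AXB/BXA strains, -0.36 in 25 inbred strains, -0.25 in 38 BXD strains, -0.19 in 7 CXB strains and 0.06 in 5 BXH strains.

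The 3 GABA genes varied together over strains, and opposite to Slc17a6. Without the 20 libraries, Pearson's r over 93 strain means was 0.82 for Gad1 with Slc32a1, 0.70 for Gad1 with Gad2 and 0.70 for Gad2 with Slc32a1, and Spearman's rho was 0.80, 0.64 and 0.66. Slc17a6 had r of -0.51 with Gad1, -0.57 with Gad2 and -0.53 with Slc32a1, with rho of -0.49, -0.59 and -0.50. Each of these 6 r and 6 rho values had a permutation p of 1e-05, the smallest that 100000 resamples can give, and an adjusted p of 1.67e-05 over 10 pairs. When the 2 strains with the most extreme level of the first gene of a pair were left out, the 6 values of r lay between -0.54 and 0.80, with signs as before.

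With all libraries the 5 relations that do not join Gad1 and Slc17a6 held, with r over 99 strains of 0.59 for Gad1 with Slc32a1, 0.61 for Gad1 with Gad2, 0.71 for Gad2 with Slc32a1, -0.43 for Gad2 with Slc17a6 and -0.51 for Slc32a1 with Slc17a6. The adjusted permutation p was 3.33e-05 for Gad2 with Slc17a6 and 2e-05 for the other 4. Gad1 with Slc17a6 had r of -0.03 (adjusted permutation p = 0.780) but rho of -0.40 (adjusted permutation p = 0.000133). Without mouse OB-547 alone, r for this pair was -0.39 (adjusted permutation p = 0.00015), so that the near-zero r over all mice rests on that library. Within strain sets without the 20 libraries, r of Gad1 with Slc17a6 was -0.54 in BXD, -0.58 in AXB/BXA, -0.71 in CXB and -0.33 in inbred strains. Recombinant strains of a set share their parents, so that strains are not fully independent points.

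The r of the Slc6a11 gene row over all 99 strains was 0.52 with Gad1 (adjusted permutation p = 2e-05, rho 0.34), 0.19 with Slc32a1 (0.0700), 0.16 with Gad2 (0.118) and 0.42 with Slc17a6 (0.000186, where rho was 0.19 with an adjusted permutation p of 0.0735). With mouse OB-547 alone left out these r values were 0.35, 0.31, 0.13 and 0.24. Without the 20 libraries r was 0.32 with Gad1 (adjusted permutation p = 0.00293), 0.31 with Slc32a1 (0.00359), 0.11 with Gad2 (0.286) and 0.17 with Slc17a6 (0.122). With the transcripts of Slc6a11 alone in place of the gene row, also without the 20 libraries, r was 0.15 with Gad1 (adjusted permutation p = 0.204) and 0.13 with Slc32a1 (0.252), so that both relations no longer passed. In the same setting r with Slc17a6 was 0.27 (adjusted permutation p = 0.0138).

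**Figure D2:**
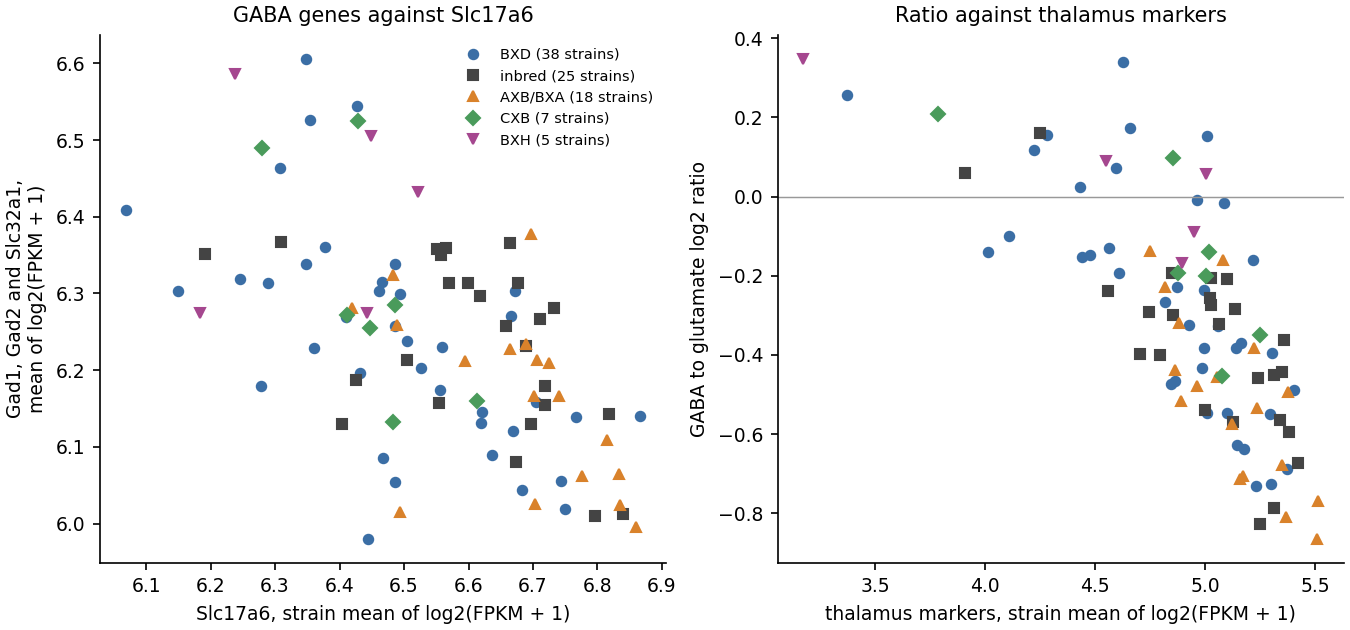
Left, mean log2(FPKM + 1) of Gad1, Gad2 and Slc32a1 (y axis) against that of Slc17a6 (x axis), and right, the GABA to glutamate log2 ratio (y axis) against the mean log2(FPKM + 1) of 5 thalamus markers (x axis), for 93 strain means without the 20 libraries, with symbols for the strain sets. Strains with more Slc17a6 have lower GABA genes, and strains with higher thalamus markers have a lower ratio (r = -0.75).

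Markers of the thalamus, a neighbour of the hypothalamus that is rich in Slc17a6 and poor in GABA neurons in rodents, moved with this axis. The list holds 5 genes, Tcf7l2, Prkcd, Tnnt1, Lef1 and Ramp3, all found and none at 0 in any of the 262 libraries, and its summed level ran from 17.4 to 381 FPKM over these mice. By strain the sum was lowest in BXHB2, at 53.3 FPKM, and highest in AXB-12/PgnJ, at 295.6, which were also the strains with the highest and lowest ratio without the 20 libraries, AXB-12/PgnJ by its 1 mouse. All 5 markers had positive r with Slc17a6 over 93 strain means (0.55 to 0.75) and negative r with Gad2 (-0.70 to -0.52), Gad1 (-0.52 to -0.33) and Slc32a1 (-0.60 to -0.44).

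The mean log2 level of the thalamus list, a relation chosen after the data had been seen, had r of 0.70 with Slc17a6 (rho 0.76), -0.65 with Gad2 (rho -0.62), -0.56 with Slc32a1 (rho -0.46) and -0.49 with Gad1 (rho -0.46) over 93 strains. The permutation p was 1e-05 for each r, the smallest possible, with an adjusted p of 1.5e-05 over 6 relations, and the 4 rho values had adjusted permutation p values of 2e-05 to 3e-05. The transcripts of Slc6a11 had r of -0.03 (adjusted permutation p = 0.761). Over all 99 strains r with the score was 0.50 for Slc17a6, -0.66 for Gad2, -0.54 for Slc32a1 and -0.44 for Gad1, with an adjusted permutation p of 6e-05 for Gad1 and 2e-05 for the other 3, and the ratio had r of -0.67. Without the 20 libraries and with the 2 strains of the most extreme score left out, r was 0.72 for Slc17a6, -0.59 for Gad2, -0.44 for Slc32a1 and -0.42 for Gad1. Within strain sets of the 262 libraries, r with Slc17a6 was 0.60 in BXD, 0.69 in AXB/BXA, 0.80 in CXB and 0.83 in inbred strains, and r with Gad2 was -0.70, -0.62, -0.89 and -0.43. Between mice of a strain, deviations from the strain mean over 259 mice had r of 0.59 for Slc17a6, -0.52 for Gad2, -0.35 for Slc32a1 and -0.16 for Gad1, whose rho was -0.09 (adjusted permutation p = 0.221).

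With the thalamus score as a covariate and without the 20 libraries, the limma strain test still passed for Gad2 (adjusted p = 0.000567), Slc32a1 (0.00762), Slc17a6 (0.000672) and the Slc6a11 gene row (2.86e-10). It no longer passed for Gad1 (0.147), and the share of all genes in this fit is not given here. Over all libraries with this covariate it passed for Gad1, Gad2, Slc32a1 and the Slc6a11 gene row, with adjusted p values by limma of 0.0277, 0.000506, 0.0101 and 0.00326, where 73.1% of all genes passed. Slc17a6 did not pass in that fit, with an adjusted p by limma of 0.352. After regression of the strain means on the scores of 5 neighbouring tissues, without the 20 libraries, r of Slc17a6 was -0.25 with Gad1 (adjusted permutation p = 0.0253), -0.19 with Gad2 (0.0847) and -0.27 with Slc32a1 (0.0204). In that setting the GABA genes kept r of 0.57, 0.70 and 0.51 among themselves. How much of the strain difference in the ratio comes with the tissue taken at dissection was not tested.

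The list of GABA neuron transcription factors had 10 of 11 members found, and over 93 strain means r with Gad2 was positive for 9 of 10, with a median of 0.61, and r with Slc17a6 was negative for 10 of 10, with a median of -0.42. Over all libraries these medians were 0.61 and -0.36. Dlx2, which promotes GABA neuron fate, had r of 0.69 with Gad2, and Dlx5 had 0.63. Of the list of glutamate neuron factors, 6 of 10 were found, and their r with Slc17a6 over the same 93 ran from -0.22 to 0.23, positive for 2 of 6. Their r was positive for 6 of 6 with Gad1 (median 0.26), Slc32a1 (0.22) and the Slc6a11 gene row (0.47), and for 4 of 6 with Gad2 (0.06). Positive r with GABA genes was thus not limited to the GABA neuron factors. These correlations across genes share the same libraries and are given as a description.

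The 3 genes most like each member were picked by r over the 99 strain means, among genes with a mean FPKM of at least 1. For Gad2 they included Gda (0.72), which encodes guanine deaminase, and Dlx2 (0.70). For Slc32a1 they were Pnoc (0.76), which encodes the precursor of nociceptin, the joint locus of Efs and Slc22a17 (0.72) and Penk (0.72), the enkephalin precursor. Slc17a6 had the closest neighbours, Rims3 (0.88), a presynaptic active zone gene, Rap1gds1 (0.88) and 1810041L15Rik (0.87). Gad1 was most like Gfra2 (0.65), the joint locus of Gm14204 and Gm14205 (0.60) and Hpcal4 (0.59), and the Slc6a11 gene row was most like Rgmb (0.76), Pom121 (0.75) and Pdxk (0.72).

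Without the 20 libraries the same 3 genes led for Gad2 and for Slc32a1. Gad1 was then most like Pnoc (0.64), Penk (0.63) and Dlx5 (0.63), Slc17a6 was most like Rab6b (0.87), Ntng1 (0.87) and Rims3 (0.86), and the Slc6a11 gene row was most like Slc4a4 (0.70), a bicarbonate cotransporter of astrocytes, Pom121 (0.68) and Rgmb (0.66).

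In the list of genes that handle GABA 12 of 13 genes were found at 11 loci, of which 9 passed the strain test over all libraries and 11 without the 20, where 75.4% and 80.5% of all genes passed. Their median strain share without the 20 was 0.301, against 0.256 over all genes. Over the 7 loci that hold no member, the median r without the 20 libraries was 0.02 with Gad1 and 0.05 with Gad2, with 4 of 7 positive for each, and over all libraries it was -0.15 and -0.02. Abat, whose row also holds Pmm2 and which encodes the enzyme that breaks down GABA, had r without the 20 libraries of 0.49 with Gad1 and -0.08 with Slc17a6, and of 0.31 and 0.17 over all libraries. Gabbr2, a subunit of the GABA-B receptor, had r of 0.82 with Slc17a6 and -0.61 with Gad2, and of 0.79 and -0.58 over all libraries. In the glutamate list all 22 genes were found, 18 passed over all libraries and 21 without the 20, with a median strain share of 0.401 without them. Of its 21 genes other than Slc17a6, 19 had positive r with Slc17a6 without the 20 libraries, with a median of 0.24, and the median over all libraries was 0.32. Slc17a7, the vesicular glutamate transporter of cortex, averaged 27.9 FPKM and had r of 0.31 with Slc17a6 and -0.57 with Gad2, and of 0.30 and -0.58 over all libraries.

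Markers of other cell types and of brain regions are given without the 20 libraries, followed by the median r over all libraries where stated. Hypothalamus markers had positive r with Gad2 for 7 of 8 genes (median 0.13) and with Slc32a1 for 7 of 8 (median 0.20). Their r was positive with Gad1 for 5 of 8 (median 0.05) and with Slc17a6 for 1 of 8 (median -0.10). Over all libraries these medians were, in the same order, 0.12, 0.27, -0.07 and -0.27. For general neuron markers r with Slc17a6 was positive for 9 of 9 genes, with a median of 0.42, and with Gad2 for 1 of 9, with a median of -0.22, and over all libraries the medians were 0.26 and -0.15. Astrocyte markers (6 of 6 found) had a median r of 0.02 with the Slc6a11 gene row and -0.17 with Slc17a6, which became -0.18 and -0.28 over all libraries. For oligodendrocytes (5 of 5), microglia (5 of 5) and endothelium (4 of 4) the median r with Slc17a6 was -0.07, -0.03 and -0.18, and -0.22, 0.08 and -0.24 over all libraries. Anterior pituitary markers (6 of 7) had a median r of -0.02 with Slc17a6 and -0.22 with Gad2, and choroid plexus markers (5 of 6) had -0.36 with Slc17a6 and 0.14 with Gad2, where all libraries gave 0.03 and -0.22 for the first list and -0.18 and 0.10 for the second. Striatum markers (4 of 6), which summed to 27.5 to 139.9 FPKM in the 262 libraries with none at 0, had a median r of 0.31 with Slc32a1 and -0.38 with Slc17a6, and 0.27 and -0.30 over all libraries. The 2 markers of cortex and hippocampus found, of 4, differed in sign, with r of -0.57 and 0.45 with Gad2 and of 0.31 and -0.49 with Slc17a6, the first of each pair being Slc17a7.

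The strain test passed over all libraries for 9 of 10 GABA neuron factors, 6 of 6 glutamate neuron factors, 7 of 9 neuron markers, 6 of 6 astrocyte, 5 of 5 oligodendrocyte, 4 of 5 microglia and 4 of 4 endothelial markers. It passed for 7 of 8 hypothalamus, 5 of 5 thalamus, 6 of 6 anterior pituitary, 5 of 5 choroid plexus, 4 of 4 striatum and 2 of 2 cortex and hippocampus markers, where 75.4% of all genes passed.

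At transcript level the 20 libraries changed the picture. Of the 42 transcripts 9 are known and 33 are unannotated isoforms, and 35 of 42 passed the limma strain test over all libraries, where 46.8% of all 51024 transcripts did. Without the 20 libraries 19 of 42 passed, where 31.9% of all did, and the median strain share of the 42 went from 0.282 to 0.129, against 0.116 and 0.0859 over all transcripts. In the 18 libraries that remain after mice OB-547 and OB-422 are set aside, 21 of the 33 unannotated isoforms were at 0 in at least 15 mice, and none of the 9 known transcripts was. Over all transcripts, the 20 libraries had a median of 11176 unannotated isoforms at 0, against 2106 in the 262. For known transcripts these medians were 2685 and 2413.5. The libraries were set apart by their transcripts at 0, so the count in the 18 partly follows from that choice and does not set these genes apart.

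In these 18 libraries the main known transcripts of Gad2, Slc6a11 and Slc17a6 had higher medians than in the 262. The known Gad2 transcript ENSMUST00000028123.3 had a median of 33.5 FPKM in the 262 libraries and 45.2 to 72.5 in the 18, and took up 61.0% and 96.3% of the Gad2 transcript sum. Known Slc6a11 transcript ENSMUST00000032451.7 had a median of 87.8 FPKM in the 262 and 154.8 to 203 in the 18. For Slc17a6 the known transcript ENSMUST00000032710.5 had 29.4 FPKM as median in the 262 and 38.6 to 65.1 in the 18, and the unannotated isoform TCONS_00306339, of the downstream start, had 2.09 and 27.3 to 48.3.

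**Figure D3:**
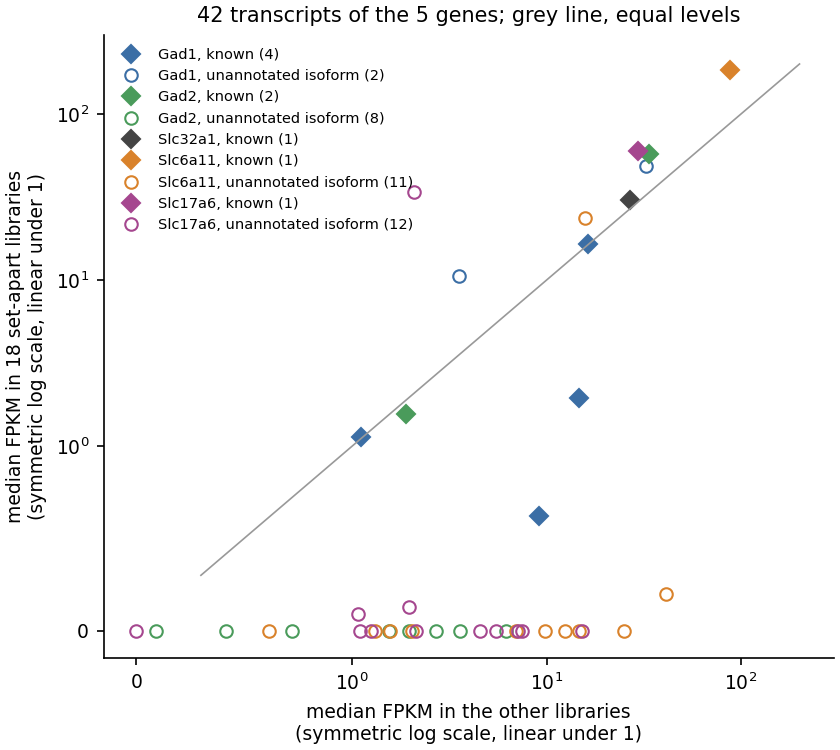
Median FPKM of each of the 42 transcripts in the 18 set-apart libraries (y axis) against the 262 other libraries (x axis), both on symmetric log axes that are linear under 1, with filled diamonds for known transcripts, open circles for unannotated isoforms and a line of equal levels. Most unannotated isoforms lie on or near 0 in the 18 libraries, and the main known transcripts of Gad2, Slc6a11 and Slc17a6 lie above the line.

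Strain differences of single transcripts that passed without the 20 libraries were led by the known Slc6a11 transcript ENSMUST00000032451.7, with a strain share of 0.468 (adjusted p by limma = 5.1e-11). Known Gad2 transcript ENSMUST00000028123.3 (share 0.227, adjusted p by limma = 0.00293) and the known Slc17a6 transcript (0.245, adjusted p by limma = 0.000913) passed too. The other known Gad2 transcript, ENSMUST00000156728.1, did not (adjusted p by limma = 0.271). Of 6 Gad1 transcripts 2 passed, and the one with the highest mean, the unannotated isoform TCONS_00187187, did not (adjusted p by limma = 0.106). For Slc32a1 the single deposited transcript, ENSMUST00000045738.4, averaged 27.7 FPKM where the gene row averaged 53.1, and did not pass, with a strain share of 0.0340 and an adjusted p by limma of 0.437. The strain difference of the Slc32a1 gene row is therefore not seen in its 1 deposited transcript, and the remainder of the gene row cannot be followed here.

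Transcripts of both Slc17a6 starts were found in each of the 262 libraries and of the 18. In the 262 libraries the upstream transcripts held 62.6% ± 6.33 (SD) of the Slc17a6 transcript sum, with single mice from 46.1% to 79.3%, and the downstream transcripts the remaining 37.4%. In the 18 libraries the upstream share was 61.9% ± 4.68. Its strain share was 0.124 without the 20 libraries. Gad1 transcripts that begin at 70553072, upstream of the RefSeq start at 70562129, held 60.5% ± 7.77 of the Gad1 transcript sum in the 262 libraries and 65.3% ± 7.75 in the 18. Slc6a11 transcripts of the upstream start, between 114131071 and 114131241, held 74.1% ± 3.48 of their sum in the 262 and 89.1% ± 2.41 in the 18, and the values of these sets of mice did not overlap.

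The parents of the recombinant sets were compared with C57BL/6J in the fit of all strains. None of 20 contrasts, 5 genes in 4 strains, passed an adjusted p of 0.05 by limma, where 6.88% of all genes passed for DBA/2J, 8.01% for A/J, 6.79% for BALB/cJ and 7.59% for C3H/HeJ. 2 of 20 had an unadjusted p under 0.05, and 17 of 20 point estimates were below C57BL/6J, with no share over all genes given for either count. The estimates above C57BL/6J were those of Slc17a6 in A/J, BALB/cJ and C3H/HeJ. All 4 contrasts use the same 3 C57BL/6J mice and the GABA genes varied together, so that these are not 20 separate observations. The standard errors were 0.13 to 0.26 on the log2 scale. In 6 of 20 contrasts the 3 mice of each strain did not overlap, where 26.6% did not over all genes and the 4 contrasts.

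A/J stood farthest from C57BL/6J in the balance of the genes. Gad2 was 60.7, 56.0 and 61.0 FPKM in A/J against 76.1, 72.3 and 71.1 in C57BL/6J, and Slc32a1 was 50.8, 41.6 and 39.2 against 68.3, 52.1 and 56.1. Slc17a6 was 112.9, 118.9 and 109.03 FPKM in A/J against 85.5, 105.8 and 88.2. In these 3 genes the mice of the 2 strains did not overlap. The log2 difference was -0.30 ± 0.13 (SE) for Gad2 (adjusted p by limma = 0.167), -0.41 ± 0.16 for Slc32a1 (0.108) and 0.29 ± 0.26 for Slc17a6 (0.603). The log2 ratio averaged -0.83 ± 0.16 (SD, n = 3) in A/J and -0.19 ± 0.31 in C57BL/6J. The thalamus markers summed to 240.0 FPKM in A/J and 188 in C57BL/6J, and with their score as covariate the log2 differences were -0.23, -0.36 and 0.21. Markers of other tissues differed too. The mean log2(FPKM + 1) of anterior pituitary markers was 2.99 in A/J and 0.60 in C57BL/6J, and the mice did not overlap. For choroid plexus markers it was 1.76 and 3.11, again without overlap. Striatum markers had 2.86 and 3.05, and cortex and hippocampus markers 3.05 and 3.03. The covariate in the fit above was the thalamus score alone.

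The Slc6a11 gene row was at 300.9, 299.3 and 256 FPKM in DBA/2J and at 303, 272.3 and 294.5 in C3H/HeJ, all below the 345, 321.4 and 338 of C57BL/6J. Its log2 difference was -0.23 ± 0.13 (SE) for DBA/2J (adjusted p by limma = 0.336) and -0.21 ± 0.13 for C3H/HeJ (0.392). BALB/cJ, at 301.7, 317.5 and 298.8 FPKM, also lay below C57BL/6J in the gene row, with a log2 difference of -0.13 ± 0.13 (adjusted p by limma = 0.692). Without the 20 libraries, none of which is of these strains, the SE fell to 0.08, and DBA/2J passed with an adjusted p by limma of 0.0412, which was the only call among the 20 contrasts in that setting. Of all genes, 9.79% then passed for DBA/2J, 10.8% for A/J, 9.44% for BALB/cJ and 10.5% for C3H/HeJ. The transcripts of Slc6a11 alone, at 202, 207 and 174.7 FPKM in DBA/2J and 232, 218 and 232 in C57BL/6J, had an adjusted p by limma of 0.0745 in that setting. BALB/cJ and C57BL/6J mice overlapped in Gad1, Gad2, Slc32a1 and Slc17a6, with 95% intervals of the log2 difference of -0.32 to 0.20 for Gad2 and -0.51 to 0.52 for Slc17a6.

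**Figure D4:**
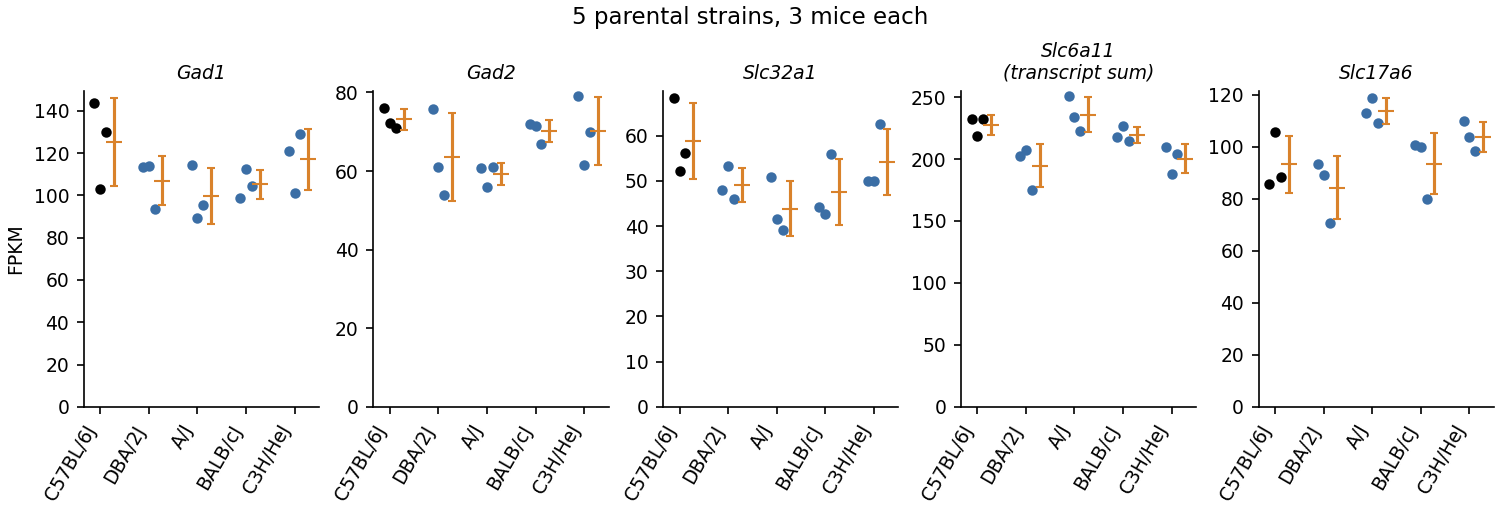
FPKM (y axis, from 0) of the 5 genes in the 3 mice of C57BL/6J (black) and of the 4 other parental strains (blue), with bars for mean ± SD (orange). A/J mice lie below C57BL/6J mice in Gad2 and Slc32a1 and above them in Slc17a6, and DBA/2J and C3H/HeJ mice lie below C57BL/6J mice in the sum of Slc6a11 transcripts.

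Some recombinant strains went past their parents in the ratio, in both directions in BXD and AXB/BXA. For the ratio, 15 of 18 AXB/BXA strains lay between A/J and C57BL/6J, 1 below and 2 above, and of 38 BXD strains without the 20 libraries 4 lay between DBA/2J and C57BL/6J, whose means of -0.27 and -0.19 are close, 18 below and 16 above. Slc32a1 of 17 of 18 AXB/BXA strains lay between A/J, at a mean of 43.9 FPKM, and C57BL/6J, at 58.8. A/J ranked 3 from the lowest of 93 strains in this gene, which favours such a count. Between their own parents lay 20 of 38 BXD, 4 of 7 CXB and 2 of 5 BXH strains. For Slc17a6, 12 of 18 AXB/BXA strains lay between 93.2 FPKM in C57BL/6J and 113.6 in A/J. In BXH all 5 strains with libraries outside the 20 lay above both parents in the ratio and below both in Slc17a6. Parental means rest on 3 mice each, and no test was made of these counts.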

How the data were processed

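Hypothalamic RNA was extracted with a Qiagen miRNAeasy kit and sequenced from TruSeq v3 libraries. STAR 2.3.1 was the authors' aligner (genome mm10) and Cufflinks 2.2.0 their assembler, and the authors deposited FPKM scaled between libraries by Cuffnorm 2.2.1, for features with any FPKM in 100 or more mice and an FPKM over 1 in 50 or more. FPKM hold no read counts, so the depth behind a value is unknown and no counting interval is given.

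Strain differences and parental contrasts were tested on log2(FPKM + 1) with limma 3.58.1 in R 4.3.3, in 1 fit of 281 mice over all genes or transcripts, with Benjamini-Hochberg adjustment and a threshold of 0.05. A fold change on this scale understates the change of low genes. Correlations over strain means used 100000 permutations (Python 3.11.15, scipy 1.17.1). Of the tests, the limma strain test and its A/J contrast were tried on simulated data. 1 mouse whose labels name a pair of strains was left out of strain tests.

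Members and lists were chosen with earlier results of these data known. The genes named are the 5 members, genes of the fixed lists (109 of 121 genes found) and, for each member, the 3 genes with the highest r over strain means. Alternatives were another pseudocount, a filter on low values, quantile normalization, depth and region marker covariates, a Kruskal-Wallis test and leaving out replicates. Leaving out the 20 libraries, leaving out mice OB-547 and OB-422, the transcript sums of Slc6a11 and the relations with the thalamus score were chosen after seeing the data. Promoter sequences are from RefSeq (GRCm38.p6). Some genes of the lists and of the genes most alike are not reported here.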

Additional observations from a re-analysis of the deposited data

How the results depend on the processing

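The count of member genes with a strain difference was 3 to 5 under all alternatives, 3 when any 1 replicate was left out. Of all genes, 75.4% passed over all mice, 80.5% without the 20 libraries and 73.1% with the thalamus covariate. Shares of all genes under the other alternatives are not given here, so these counts do not set the members apart from other genes. Gad1 lost its call without replicate 1 (adjusted p by limma = 0.149), Slc32a1 without replicate 2 (0.208) and the Slc6a11 gene row without replicate 3 (0.104), while Gad2 passed in 16 of 16 alternatives and Slc17a6 in 5 of 16. Of 42 transcripts, 20 to 30 passed without 1 replicate, where the share of all transcripts is not given here. Without the 20 libraries 19 passed, where 31.9% of all transcripts did. Parental contrasts gave 1 call without the 20 libraries and 1 without mice OB-547 and OB-422, the Slc6a11 gene row in DBA/2J in both. The median log2 ratio was 0.24 with Gad1 alone, -0.86 with Slc32a1 alone and 1.29 from summed FPKM. The cause of these shifts was not tested.

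The parental contrasts that changed sign had no call in any of these settings. On the log2 scale, Slc6a11 in A/J was 0.067 by quantile normalization and 0.050 from its own transcripts. Gad2 in C3H/HeJ was 0.023 with the thalamus covariate and 0.057 with 5 region covariates, which also gave -0.075 for Slc17a6 in BALB/cJ, -0.013 for Slc17a6 in C3H/HeJ and 0.013 for Slc32a1 in C3H/HeJ. When 1 replicate was left out, Slc6a11 in A/J ranged from -0.054 to 0.040, Slc17a6 in BALB/cJ from -0.11 to 0.075, Gad2 in C3H/HeJ from -0.12 to 0.016 and Slc32a1 in C3H/HeJ from -0.25 to 0.048. With all libraries r of Gad1 with Slc17a6 turned to 0.40 over deviations of mice, 0.022 by quantile normalization and 0.35 over residuals on region scores, and ranged from -0.25 to 0.17 without 1 replicate. Slc32a1 with the Slc6a11 gene row turned to -0.13 over deviations of mice. No paired analysis was possible because replicate numbers were given in accession order only. Library depth entered only as covariates in 1 of the alternative fits. FPKM hold no read counts, so what depth limits in a single value could not be assessed.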

Other observations

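The mouse whose labels name a pair of strains had 117 FPKM of Gad1, 75.1 of Gad2, 54.5 of Slc32a1, 346 of the Slc6a11 gene row and 114 of Slc17a6, and a log2 ratio of -0.54.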
